A study of Mus musculus with 18 samples.

Results

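The 34 genes described here make cholesterol and fatty acids or set how much of either is made. The list was chosen with earlier results of these data known, but the rule used names and no measured value. The genes were taken by name from the 18909 of the deposited table, and all 34 had a row there. Of them 18 encode steps of sterol synthesis, 9 encode steps of fatty acid synthesis, elongation or desaturation, 4 encode the switch that controls both pathways, 2 encode proteins that move cholesterol inside the cell, and 1 makes a branch product of the sterol pathway. RNA was sequenced from cultures of 2 mouse tumour lines of C57BL6 origin, B16F10 melanoma cells and E0771 mammary tumour cells. Each line carried the retroviral vector pRetrox as a control or with MRTFA or MRTFB, the coactivators that leave the cytoplasm when actin polymerises and join the transcription factor SRF on cytoskeleton genes. All groups, the controls included, received 500 ng/mL doxycycline for 48 h in RPMI with 10% FBS. There were 3 libraries in each of the 6 groups, and whether the replicates were separate transductions, whether a line was 1 clone, and which promoter the vector used were not given in the sources used here. The p-values below therefore measure only the spread between these libraries, which may be technical.

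Sterol synthesis runs from acetyl-CoA through mevalonate, the isoprenoids and squalene to lanosterol, whose rings are then trimmed to cholesterol. Fatty acid synthesis starts from the same acetyl-CoA, which is carboxylated, built into palmitate, elongated and given double bonds. Both sets of genes are known targets of the SREBP transcription factors, which stay in the endoplasmic reticulum while sterols are plentiful and are cut free when sterols run short; SREBP2 is known mainly for the sterol genes and SREBP1 mainly for the fatty acid genes. Serum in the medium supplies cholesterol to cultured cells.

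Libraries held between 27607055 and 37116655 reads over the genes of the table. All 7 melanocyte markers were at 10 or more scaled reads in every B16F10 library, and 4 in every E0771 library. Their sum was 594106 to 757748 in B16F10 controls and 558 to 636 in E0771 controls. Krt8, a keratin of simple epithelia, made up most of the mammary marker sum of E0771 controls (mean 6720). Krt7, Epcam and Krt14 also had higher means in E0771 than in B16F10 controls. Cdh1 had a lower one (4.57 against 56.0), Krt19 was at 0.311 against 0, and Krt5 was at 0 in both. The transgene could be seen in E0771: Mkl1, which encodes MRTFA, stood at 1124, 1514 and 1408 scaled reads in the control libraries and at 12469, 16557 and 12160 with MRTFA, a log2 difference of 3.34 ± 0.19 (SE; limma adjusted p = 4.68e-07). In B16F10 its counts were 1109, 987 and 950 in the control and 1398, 902 and 1314 in the libraries labelled MRTFA, a log2 difference of 0.22 ± 0.18 (SE; limma adjusted p = 0.856). Mkl2, which encodes MRTFB, was higher by 0.68 ± 0.10 in E0771 with MRTFB (adjusted p = 0.0306) and differed by 0.35 ± 0.14 in B16F10 (adjusted p = 0.503). For that reason the B16F10 groups are named here by their labels only. Replicate number 3 of E0771 stood apart for the sterol genes: it was the lowest of the 3 libraries for 17 of 18 of them in the control, for 16 of 18 with MRTFA and for 16 of 18 with MRTFB, while the share of all tested genes lowest there was 25%, 35.2% and 34.5%. B16F10 showed no such library in all 3 groups, since the number with most of the lowest sterol values was 3 in the control (10 of 18), 2 in the group labelled MRTFA (8 of 18) and 2 in the group labelled MRTFB (11 of 18).

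Levels in the control cells give the starting point. A scaled read is a read count divided by the size factor of its library, so values of 1 gene compare across libraries, and genes were compared with each other only after division by the length of their annotated exons in kilobases (kb). That length joins the exons of every annotated transcript, so a gene with long rare transcripts comes out low. On this scale the desaturase gene Scd2, which puts a double bond into stearate, was the highest of the 34 in both lines, at 12704 ± 2189 scaled reads per kb in B16F10 and 7127 ± 1484 in E0771 (SD, n = 3). Its paralogue Scd1 stood at 2370 ± 509 and 1603 ± 190. The ATP citrate lyase gene Acly, whose product makes cytosolic acetyl-CoA, stood at 2664 ± 119 and 1159 ± 64.0. In B16F10 the ranges of Acly and Scd1 overlapped. In E0771 the order was Scd2, Scd1, Fasn and Acly, and the last 3 overlapped with their neighbours. The lowest level in both lines belonged to Tm7sf2, a sterol C14 reductase gene, at 39.4 ± 5.39 and 12.4 ± 3.10, next to Acss2, the cytosolic acetyl-CoA synthetase gene, at 45.5 ± 5.17 and 31.2 ± 4.63. Among the sterol genes Cyp51, which removes the C14 methyl group of lanosterol, was the highest in B16F10 at 1390 ± 56.5 per kb, and Pmvk, a mevalonate pathway kinase gene, the highest in E0771 at 844 ± 89.9.

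**Figure D1:**
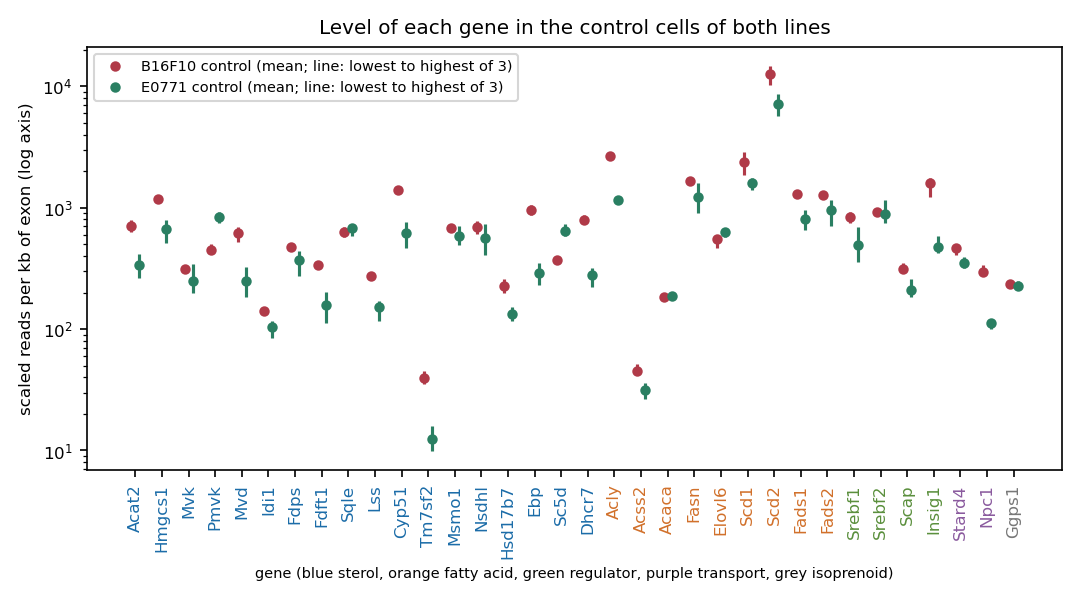
Scaled reads per kb of exon (log axis) for each of the 34 genes in the control libraries of both lines; points are means and vertical lines run from the lowest to the highest of 3 libraries. Scd2 is the highest gene in both lines and Tm7sf2 the lowest, and most E0771 points lie under the B16F10 point of the same gene.

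The control libraries of the lines differed in these genes. Of the 34, 22 were lower in E0771 than in B16F10 controls and 2 were higher (limma, adjusted p under 0.05), where 36.8% of all tested genes were called lower and 33.4% higher. The sterol genes had 11 lower and 2 higher of 18 with a median log2 difference of -0.80, and the fatty acid genes 6 lower and 0 higher of 9 with a median of -0.55, beside -0.04 over the 14859 genes tested. Lowest against B16F10 were Ebp, the sterol isomerase gene, at -1.74 ± 0.14 (SE; adjusted p = 6.83e-09), and Insig1, whose product holds SREBP in the endoplasmic reticulum, at -1.72 ± 0.19 (adjusted p = 5.06e-07). Insig1 had 3815, 5454 and 5417 scaled reads in B16F10 controls and 1330, 1808 and 1302 in E0771 controls. Tm7sf2 (-1.67), Dhcr7, which encodes the last reductase before cholesterol (-1.53), Npc1, the lysosomal cholesterol exporter gene (-1.37), and Mvd, the mevalonate pathway decarboxylase gene (-1.32), were next on the log2 scale. Pmvk (0.90) and Sc5d, a sterol desaturase gene (0.80), were the 2 genes higher in E0771, with no overlap of the libraries of the lines. For Srebf2, the SREBP2 gene, the difference was -0.10 ± 0.18 (95% interval -0.48 to 0.29), and for Srebf1, the SREBP1 gene, it was -0.84 ± 0.23 (adjusted p = 0.00406). The call for Idi1 was lost without E0771 control replicate 3 (adjusted p = 0.159) or without any of the 3 B16F10 control libraries, and that for Fads2 without any of 5 of the 6 control libraries (adjusted p up to 0.271). Scd1 lost its call without B16F10 control replicate 1 or E0771 control replicate 3 (adjusted p = 0.0666 and 0.0511), and Stard4 without E0771 control replicate 3 (0.0560). With upper-quartile scaling Idi1 and Fads2 lost theirs (limma adjusted p = 0.0680 and 0.0904). Fads2 lost its call too with TMM scaling or edgeR, and both Fads2 and Scd1 without the E0771 libraries numbered 3.

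The promoters of 26 of the 34 genes were at hand from RefSeq (build GRCm38.p6) as windows of 300 bases, 250 before and 50 after an annotated start, with more than 1 window for some genes. The letters CCAAT, on either strand, were found for 21 of the 26 genes, for 14 of the 15 sterol genes (Acat2 was the exception) and for 3 of the 6 fatty acid genes (Acly, Acss2 and Fasn), beside 41.1% of the 27025 genes with a window. The sterol response element TCACNCCAC was found for 1 of 26 (Hmgcs1) beside 1.44% of all genes, and its looser form TCACNCNAC, which includes the first, for Hmgcs1 and Nsdhl beside 3.15%. CACGTG, an E-box, was found for 5 of 26 (Dhcr7, Hsd17b7, Insig1, Sc5d and Scap) beside 8.09%, and the CArG box, to which SRF binds, for 0 of 26 beside 1.81%. A match is a string of letters in the window and no more, and its absence says nothing of sites elsewhere. The Acaca window, chr11:84195188-84195487, lay within the gene, which starts at base 84129672. Sequence before that first start was not searched for this fatty acid gene. The 5 windows below are shown for the genes the results turn on: Hmgcs1, Msmo1 and Mvd stand for the sterol genes that were lower in B16F10, while Acss2 and Elovl6 had the highest and the lowest difference with MRTFA in E0771 among the 6 fatty acid genes with a window. Capitals mark CCAAT on either strand and, in Hmgcs1, also the sterol response element, which begins at position -137 from the start. Mvd is at chr8:122443373-122443672, minus strand, Hmgcs1 at chr13:119690101-119690400, plus strand, Msmo1 at chr8:64733529-64733828, minus strand, Acss2 at chr2:155517793-155518092, plus strand, and Elovl6, which has no capitals, at chr3:129532136-129532435, plus strand.
Hmgcs1: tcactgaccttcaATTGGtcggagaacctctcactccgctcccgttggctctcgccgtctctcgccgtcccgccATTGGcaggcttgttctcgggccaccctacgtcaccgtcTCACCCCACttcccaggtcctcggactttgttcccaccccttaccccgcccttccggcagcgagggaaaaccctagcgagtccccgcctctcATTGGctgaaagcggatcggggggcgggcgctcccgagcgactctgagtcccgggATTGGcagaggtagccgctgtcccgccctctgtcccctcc
Msmo1: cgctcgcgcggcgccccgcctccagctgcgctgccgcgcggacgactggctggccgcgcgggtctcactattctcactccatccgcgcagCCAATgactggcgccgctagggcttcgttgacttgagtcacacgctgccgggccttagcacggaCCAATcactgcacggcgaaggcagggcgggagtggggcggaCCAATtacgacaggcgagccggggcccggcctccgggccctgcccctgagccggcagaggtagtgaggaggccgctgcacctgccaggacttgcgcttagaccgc
Mvd: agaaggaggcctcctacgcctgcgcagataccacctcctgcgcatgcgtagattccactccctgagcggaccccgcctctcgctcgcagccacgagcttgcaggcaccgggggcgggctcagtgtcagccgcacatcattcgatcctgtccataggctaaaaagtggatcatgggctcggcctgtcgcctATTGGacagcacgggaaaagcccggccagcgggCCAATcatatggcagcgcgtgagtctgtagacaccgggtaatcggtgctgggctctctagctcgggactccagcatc
Acss2: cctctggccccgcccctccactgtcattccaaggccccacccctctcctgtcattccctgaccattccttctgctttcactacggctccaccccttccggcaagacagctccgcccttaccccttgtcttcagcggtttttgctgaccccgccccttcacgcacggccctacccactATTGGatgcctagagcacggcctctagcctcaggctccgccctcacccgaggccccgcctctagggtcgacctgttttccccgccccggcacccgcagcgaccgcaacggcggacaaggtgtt
Elovl6: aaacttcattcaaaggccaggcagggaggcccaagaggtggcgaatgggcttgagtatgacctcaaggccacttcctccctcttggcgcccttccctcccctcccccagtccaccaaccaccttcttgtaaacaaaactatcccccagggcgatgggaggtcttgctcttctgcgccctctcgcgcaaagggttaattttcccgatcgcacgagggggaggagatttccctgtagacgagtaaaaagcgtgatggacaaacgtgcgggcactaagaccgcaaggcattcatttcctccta
The CCAAT matches of Msmo1 began at -160, -96 and -55, those of Mvd at -60 and -27, and the single match of Acss2 at -73.

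In B16F10 the sterol genes lay below the control in the libraries labelled MRTFA. All 18 had a fitted log2 difference under 0, with a median of -0.39 and a range from -0.79 to -0.15. Over the 13517 genes tested the median was -0.01 and 52.7% lay under 0. For 15 of the 18 every library labelled MRTFA was below every control library, as it was for 6.09% of all tested genes. Few of these differences passed the test gene by gene. Of the 34 members 1, Msmo1, fell (limma, adjusted p under 0.05, beside 0.207% of all tested genes) and 0 rose (beside 1.34%). An unadjusted limma p under 0.05 was found for 17 of the 34, all lower, beside 1272 of the 13517 genes tested, in either direction. Libraries with the same replicate number varied together in this line, and with that number in the fit as a block 17 of 34 members fell, 15 sterol genes with Scd1 and Stard4, beside 2.35% of all tested genes called lower that way, and 0 rose, beside 3.98%. DESeq2 called 10 of the 34 lower and edgeR 1, beside 97 and 29 of the 13517 genes tested. The summed level of the mammary markers, low in this line, was 113 to 188 scaled reads in the libraries labelled MRTFA and 47.7 to 80.8 in the controls. The means of Krt8, Krt7, Krt19, Epcam, Krt5 and Krt14 were all higher than in the controls, that of Krt7 at 57.4 against 2.89. Only Cdh1 had a lower mean, 33.9 against 56.0, and its groups overlapped. The part of these markers in the results was not tested. In bulk RNA a lower level in each cell and fewer cells with a high level cannot be told apart.

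Early and late steps of the pathway shared this position. Hmgcs1, whose product makes HMG-CoA, had 5351, 5126 and 5655 scaled reads in the control libraries and 3763, 3880 and 4493 in those labelled MRTFA. The highest library labelled MRTFA was thus below the lowest control, and the log2 difference was -0.41 ± 0.09 (SE; limma adjusted p = 0.0693; 0.00429 with the block). Mvd, which decarboxylates the last mevalonate intermediate, went from 1286, 1167 and 975 to 802, 494 and 716. That was the largest difference of the set, -0.79 ± 0.18, and the groups did not overlap (adjusted p = 0.0706; 0.00335 with the block). Squalene epoxidase, encoded by Sqle and a slow step of the pathway, was measured at 3813, 3496 and 3151 in controls and 2807, 2777 and 2846 in the libraries labelled MRTFA, again without overlap (-0.31 ± 0.08, adjusted p = 0.156; 0.0160 with the block).

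Msmo1, which encodes the methyl sterol oxidase that starts removal of the C4 methyl groups, was the gene that fell without the block. Its control libraries held 4057, 4321 and 4054 scaled reads and those labelled MRTFA 2475, 2743 and 3287. The difference was -0.56 ± 0.10 (SE; limma adjusted p = 0.0199), a ratio of means of 0.684. Leaving out control replicate 1 or 2 or labelled replicate 1 or 2 ended the call, with adjusted p = 0.0742, 0.110, 0.127 and 0.121, while the difference stayed between -0.67 and -0.46. Tm7sf2 was measured at 200, 154 and 167 in controls against 118, 87.9 and 134, with no overlap and a difference of -0.63 ± 0.20 (adjusted p = 0.269; 0.0242 with the block). Ebp, Mvk and Hsd17b7 were the 3 sterol genes whose groups overlapped. Of the 18, Mvk (-0.37), Ebp (-0.15) and Dhcr7 (-0.24) were not called with the block either.

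**Figure D2:**
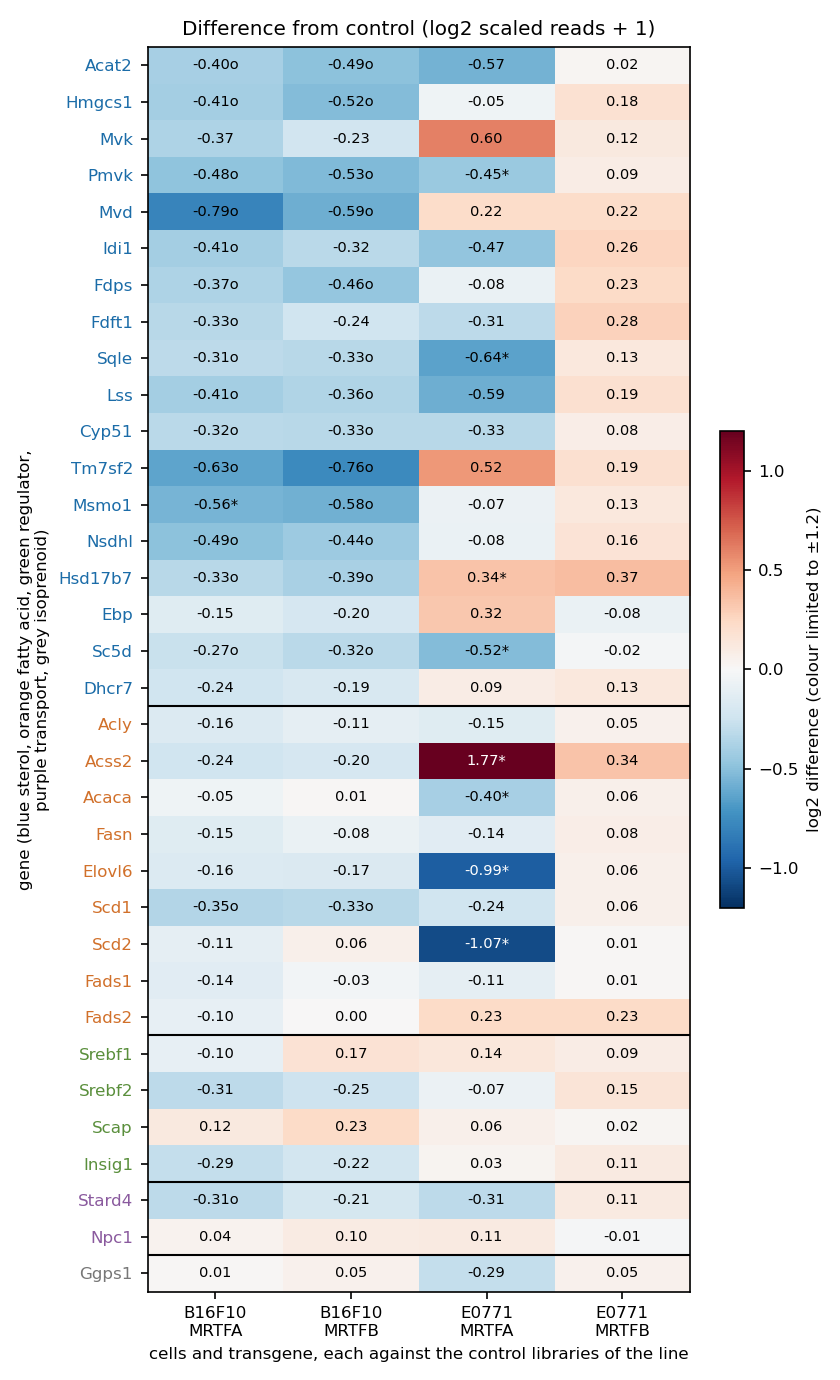
Fitted log2 difference from the control of the same line (colour, limited to 1.2 either way, with the value printed) for the 34 genes in rows and the 4 transgene groups in columns; a star marks a call by limma at adjusted p under 0.05 and a small o a call only with replicate number as a block, shown where same-numbered libraries varied together. The sterol rows are under 0 in both B16F10 columns, and the largest values of the E0771 MRTFA column are Acss2 at 1.77, Elovl6 at -0.99 and Scd2 at -1.07.

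The fatty acid genes of the same B16F10 libraries were closer to the control. All 9 were under 0, but the median was -0.15 and the groups were apart, lower, for 3 of 9 (Acly, Acaca and Fads1), and 0 passed the test without the block (0 had an unadjusted p under 0.05, and edgeR and DESeq2 each called 0). Acaca, which encodes the acetyl-CoA carboxylase that commits carbon to fatty acids, had 3048, 3204 and 3055 scaled reads in controls and 2956, 3000 and 3023 in the libraries labelled MRTFA, a difference of -0.05 ± 0.08. Fasn, the fatty acid synthase gene, had 17132, 17243 and 19581 and 19875, 12546 and 17149, with overlap (95% interval -0.49 to 0.20). Scd1, at 13993, 11766 and 9022 and 10318, 9423 and 7411, overlapped too, since replicate 3 was the lowest and replicate 1 the highest in each group. Within each replicate number Scd1 was lower in the library labelled MRTFA, and it fell with the block (-0.35 ± 0.20; adjusted p = 0.706 without and 0.00377 with the block). Scd2, at 79887, 71975 and 56384 against 75732, 69041 and 49011, had a difference of -0.11 ± 0.21 (adjusted p = 0.972; 0.370 with the block).

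Among the regulators, Srebf2 had 6888, 6682 and 6456 scaled reads in B16F10 controls and 6243, 4561 and 5525 in the libraries labelled MRTFA. These groups did not overlap, and the difference of -0.31 ± 0.12 did not pass the test (limma adjusted p = 0.442; 0.0620 with the block). Srebf1, at 5183, 4871 and 4231 and 5987, 3951 and 3691, overlapped, with the highest of the 6 libraries in the group labelled MRTFA (-0.10 ± 0.16). Insig1 overlapped as well, at 3815, 5454 and 5417 and 3072, 4546 and 4449 (-0.29 ± 0.18, adjusted p = 0.0584 with the block), and replicate 1 was its lowest library in both groups. Stard4, a carrier of cholesterol between membranes, fell with the block only (-0.31 ± 0.12; adjusted p = 0.0201), and Npc1 was at 0.04 ± 0.11. Ggps1, which makes the geranylgeranyl lipid from intermediates of the same pathway, was at 0.01 ± 0.08 (95% interval -0.17 to 0.20).

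The B16F10 libraries labelled MRTFB were set against the same 3 control libraries, so their values are given beside those above and not as a second test. All 18 sterol genes were under 0, beside 49.5% of all tested genes, with a median of -0.38 (0.00 over all tested genes) and a range from -0.76 to -0.19. The groups were apart, lower, for 14 of 18, beside 7.45% of all tested genes. No member passed the test (limma 0 of 34 lower, beside 0.111% of all tested genes, and 0 higher, beside 0.0148%). The unadjusted limma p was under 0.05 for 15 members, beside 1199 of the 13517 genes tested. Lower calls by edgeR and DESeq2 were 0 and 7 members, beside 15 and 132 of all tested genes. With the block 14 of 34 members fell, 13 sterol genes and Scd1, beside 2.83% of all tested genes, and 0 rose, beside 1.63%. Hmgcs1 stood at 4060, 3395 and 3824 in these libraries and Msmo1 at 2794, 2654 and 2867, each below every control. Their differences were -0.52 ± 0.09 and -0.58 ± 0.10 (adjusted p = 0.0861 and 0.0755; 0.00413 and 0.00529 with the block). Tm7sf2 had the largest difference, -0.76 ± 0.20, from 120, 88.0 and 99.2 scaled reads, and Mvd stood at 838, 669 and 770 (-0.59) and Sqle at 2973, 2664 and 2683 (-0.33).

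Fatty acid genes of the libraries labelled MRTFB had a median of -0.08, with 6 of 9 under 0 and 0 of 9 with groups apart. Fasn, at 18772, 15134 and 17279, and Scd2, at 90075, 73244 and 56127, both overlapped the controls (-0.08 ± 0.15 and 0.06 ± 0.21). Scd1, at 11474, 9111 and 7224, was again lower than the control of the same number in every pair and fell with the block (-0.33, adjusted p = 0.0128). Acss2, Acaca and Elovl6 differed from the control by -0.20 ± 0.13, 0.01 ± 0.08 and -0.17 ± 0.14. Of the regulators, Srebf2 stood at 5706, 4875 and 6331, below every control (-0.25 ± 0.12, adjusted p = 0.597), while Srebf1 at 5740, 5075 and 5172 and Insig1 at 3740, 4817 and 3986 overlapped theirs. Over the 2 B16F10 comparisons with control 0 members had groups apart on the higher side, beside 6.83% and 6.38% of all tested genes. Set directly against each other, the B16F10 groups labelled MRTFB and MRTFA did not differ in any member past the threshold (limma 0 higher and 0 lower, beside 0.0148% and 1.08% of all tested genes, edgeR and DESeq2 0). The unadjusted limma p was under 0.05 for 0 members, beside 586 of the 13517 genes tested. The largest fitted differences there, Srebf1 at 0.26 ± 0.16 and Mvd at 0.20 ± 0.18, had 95% intervals of -0.10 to 0.62 and -0.20 to 0.60.

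**Figure D3:**
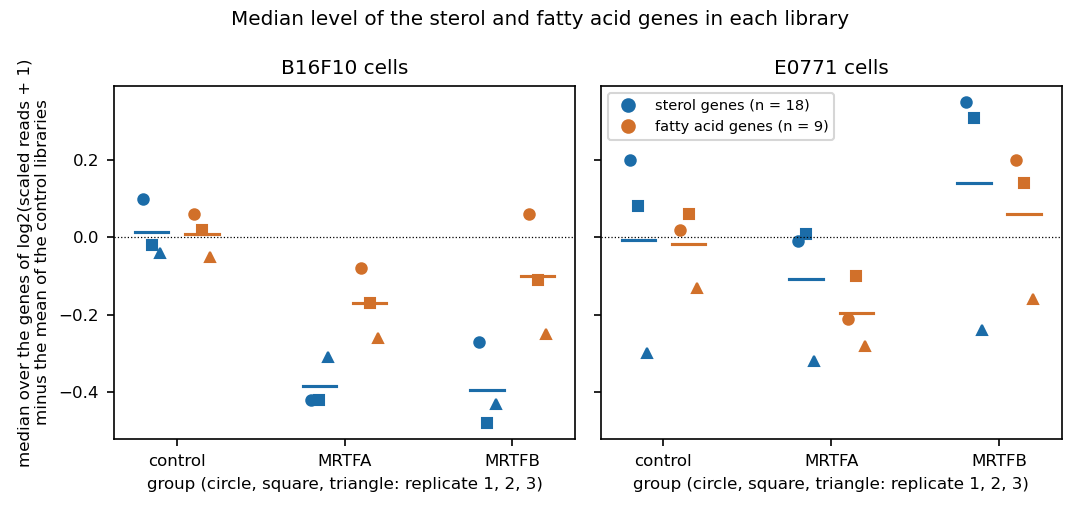
Median over the 18 sterol genes (blue) and the 9 fatty acid genes (orange) of log2(scaled reads + 1) minus the mean of the control libraries of the line, for each library; horizontal bars are means of 3. The 6 B16F10 sterol medians with a transgene label lie between -0.48 and -0.27, under all 3 control values, while the E0771 values spread with replicate 3 (triangles) lowest in every group.

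The arms were also read library by library. In B16F10 the sterol median was -0.42, -0.42 and -0.31 in the libraries labelled MRTFA (replicates 1, 2 and 3) and -0.27, -0.48 and -0.43 in those labelled MRTFB, against 0.10, -0.02 and -0.04 in the controls. The fatty acid median was -0.08, -0.17 and -0.26 in the former and 0.06, -0.11 and -0.25 in the latter. Replicate 3 had the smallest gap between the arms in both labelled groups, -0.05 with the label MRTFA and -0.18 with the label MRTFB, and the first is close to the lowest control gap (0.04, -0.04 and 0.01 in the 3 controls). In E0771 the gap was 0.18, 0.03 and -0.17 in the controls, 0.20, 0.11 and -0.04 with MRTFA and 0.14, 0.17 and -0.08 with MRTFB, so these groups overlapped. In the fit the sterol median minus the fatty acid median was -0.24 for MRTFA and -0.30 for MRTFB in B16F10, and 0.07 and 0.09 in E0771. Acly and Acss2, whose acetyl-CoA feeds both arms, were counted here with the fatty acid genes.

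In E0771 with MRTFA single genes of both arms changed, in both directions. Of the 34 members 2 rose and 6 fell (limma, adjusted p under 0.05), beside calls for 20.3% (higher) and 18.1% (lower) of all tested genes. In this fit the members' shares of calls were thus below or near those of all genes. With replicate number as a block 5 members rose and 13 fell, beside 3237 and 3168 of the 13189 genes tested. The block was kept as an alternative here, since same-numbered libraries did not all vary together (lowest correlation 0.084). The sterol genes had 1 higher and 3 lower of 18 with a median of -0.08, the fatty acid genes 1 higher and 3 lower of 9 with a median of -0.15, and all 13189 tested genes had a median of -0.02. Groups were apart, higher, for 2 members (24.2% of all tested genes) and, lower, for 12 (25.9%). Without the E0771 libraries numbered 3, an alternative chosen after seeing the data, 2 members rose and 9 fell, beside 2069 and 1875 of 12463 genes. With upper-quartile scaling 1 member rose and 11 fell, and over all genes the calls moved from 2677 higher and 2387 lower to 2451 and 3025. The summed level of the mammary markers also differed in these libraries, at 15014 to 17047 scaled reads against 5842 to 7920 in the controls, with 4 of the 7 markers in the table at 10 or more, Krt8 making up most of the sum and Krt5 at 0 in all 3 controls. The means of Epcam and Krt14 were lower with MRTFA (33.5 against 42.1, and 15.5 against 19.3), and the part of these markers in the results was not tested.

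Acss2 had the largest difference of the set. Its product turns acetate into cytosolic acetyl-CoA. The E0771 controls held 319, 269 and 363 scaled reads and the MRTFA libraries 991, 1137 and 1111. Every MRTFA library was above 2 times the highest control, and Acss2 rose by 1.77 ± 0.15 (SE; limma adjusted p = 7.19e-06; ratio of means 3.41). The call stood in each of the 6 fits that left out 1 library. Exons of Acss2 overlap on the opposite strand with Ggt7, Gss and Acss2os over 197, 395 and 335 bases of its 10163, and no source used here says whether reads were counted by strand.

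The other fatty acid genes that changed in E0771 fell. Scd2, the member with the highest level per kb, had 38868, 47090 and 30869 scaled reads in controls and 22068, 20896 and 13229 with MRTFA. The highest MRTFA library was below the lowest control, and Scd2 fell by 1.07 ± 0.22 (adjusted p = 0.00350; ratio of means 0.481). Elovl6, which lengthens palmitate to stearate and so makes the substrate of the SCD enzymes, went from 4284, 4200 and 3689 to 2470, 2051 and 1677, also without overlap (-0.99 ± 0.18, adjusted p = 0.00150). Acaca went from 3023, 3156 and 3411 to 2143, 2533 and 2624, without overlap (-0.40 ± 0.09, adjusted p = 0.00724). All 3 calls stood whichever 1 library was left out. Scd1, a paralogue of Scd2, had 8075, 8638 and 6819 and 6687, 6705 and 6398, with every MRTFA library below every control and a difference of -0.24 ± 0.11 that did not pass the test (adjusted p = 0.118). Fasn, between these enzymes in the pathway, was at 9896, 17452 and 12907 and 12800, 13715 and 9458, with overlap and control replicate 2 as the highest library (-0.14 ± 0.21, 95% interval -0.61 to 0.32). The fatty acid desaturase genes Fads1 (-0.11 ± 0.16) and Fads2 (0.23 ± 0.22) did not pass either.

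Of the sterol genes Sqle, Sc5d and Pmvk fell with MRTFA in E0771. Sqle had 4094, 4061 and 3234 scaled reads in the controls and 2639, 2703 and 1981 with MRTFA, without overlap (-0.64 ± 0.17, limma adjusted p = 0.0114). Sc5d, whose product adds a double bond to the sterol B ring, went from 3572, 3020 and 2832 to 2288, 2184 and 2090 without overlap (-0.52 ± 0.11, adjusted p = 0.00519). Pmvk went from 1488, 1574 and 1275 to 1118, 1124 and 934, and its groups did not overlap (-0.45 ± 0.12, adjusted p = 0.0163). The first 2 calls stood in all 6 fits that left out 1 library, and that of Pmvk was lost without control replicate 1 or 2 or MRTFA replicate 3 (adjusted p = 0.0517, 0.0563 and 0.0567).

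Hsd17b7, which encodes a sterol ketone reductase, was the sterol gene that rose. It had 595, 659 and 772 scaled reads in E0771 controls and 815, 834 and 897 with MRTFA, without overlap (0.34 ± 0.12, limma adjusted p = 0.0405). The call stood in 1 of the 6 fits that left out 1 library, the one without control replicate 3, and the adjusted p reached 0.137 in the other 5 and 0.0835 with upper-quartile scaling. Mvk, the mevalonate kinase gene, at 551, 919 and 527 and 1233, 1058 and 720, overlapped through control replicate 2 (0.60 ± 0.25, adjusted p = 0.0788). Acat2, which joins 2 acetyl-CoA at the start of the pathway, at 1061, 859 and 671 and 649, 620 and 468, did not overlap and missed the threshold (-0.57 ± 0.21, adjusted p = 0.0518). So did Lss, the lanosterol synthase gene, at 1833, 1799 and 1247 and 1236, 1131 and 867 (-0.59 ± 0.22, adjusted p = 0.0565). Hmgcs1 at 3649, 3197 and 2350 and 3131, 3241 and 2444, and Msmo1 at 4305, 3490 and 3006 and 3401, 3664 and 3128, overlapped (-0.05 ± 0.22 and -0.07 ± 0.16). The regulators did not pass the test in E0771 with MRTFA: Srebf1 was at 1994, 3935 and 2386 and 3282, 3312 and 2285, Srebf2 at 5381, 8289 and 5455 and 6662, 6875 and 4558, and Insig1 at 1330, 1808 and 1302 and 1352, 1765 and 1401. All 3 overlapped, with 95% intervals of -0.42 to 0.69, -0.52 to 0.37 and -0.36 to 0.43.

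**Figure D4:**
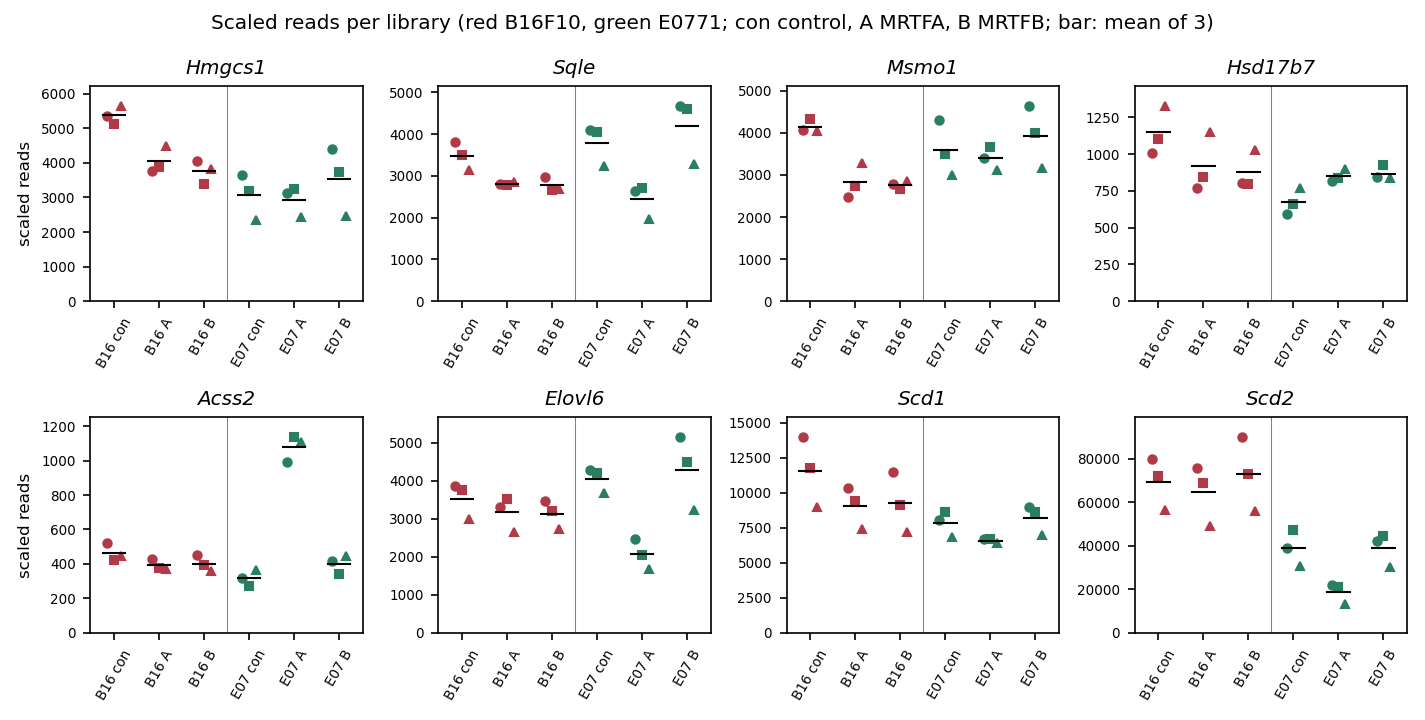
Scaled reads in each library for 8 members (circle, square and triangle for replicates 1, 2 and 3; bars are means of 3; each axis starts at 0). Hmgcs1 and Msmo1 separate in B16F10, Acss2, Elovl6 and Scd2 separate with MRTFA in E0771, and Sqle is lower in B16F10 with either label and in E0771 with MRTFA.

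MRTFB in E0771, set against the same E0771 controls, called no member. The counts were 0 higher and 0 lower of 34 (limma, beside 0.136% and 0.00758% of all tested genes, edgeR and DESeq2 0), and with the block 0 and 0 (0.243% and 0.00758%). An unadjusted limma p under 0.05 was found for 2 members, Hsd17b7 and Acss2, beside 335 of the 13189 genes tested. Fitted differences were above 0 for 16 of 18 sterol genes and for 9 of 9 fatty acid genes, beside 6158 of the 13189 genes tested. The medians were 0.15 and 0.06, beside -0.01 for all tested genes. Groups were apart, higher, for 1 member, Hsd17b7 (3.04% of all tested genes), and, lower, for 0 (2.56%). Hsd17b7 had 842, 925 and 834 scaled reads with MRTFB (0.37 ± 0.12, adjusted p = 1.0) and Acss2 416, 339 and 448 (0.34 ± 0.15, adjusted p = 1.0). Hmgcs1 at 4388, 3742 and 2451, Sqle at 4685, 4608 and 3285 and Msmo1 at 4646, 3992 and 3163 showed the spread between replicates, with replicate 3 the lowest in each. Their 95% intervals were -0.30 to 0.67, -0.23 to 0.50 and -0.22 to 0.47 on the log2 scale. Scd1 at 8978, 8621 and 6978, Scd2 at 42415, 44383 and 30486, Elovl6 at 5153, 4499 and 3221 and Fasn at 11472, 16226 and 14259 overlapped the controls, as did Srebf1 at 2182, 3270 and 3160, Srebf2 at 5851, 8046 and 7078 and Insig1 at 1499, 1997 and 1320.

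Set directly against MRTFA in E0771, MRTFB left 9 members higher and 1 lower (limma; 14.5% and 19.1% of all tested genes), and with the block 16 higher and 2 lower (20.6% and 23.2%). With upper-quartile scaling 13 members were higher and 1 lower, and the calls over all genes moved from 1916 higher and 2514 lower to 2645 and 2286. The members higher with MRTFB were Scd2 (1.08 ± 0.22), Elovl6 (1.04 ± 0.18), Acaca (0.46 ± 0.09), Sqle (0.78 ± 0.17), Lss (0.78 ± 0.22), Idi1, the isopentenyl isomerase gene (0.73 ± 0.23), Pmvk (0.54 ± 0.12), Sc5d (0.50 ± 0.11) and Stard4 (0.42 ± 0.14). Acss2 was the lower one (-1.43 ± 0.15, adjusted p = 3.81e-05). This comparison used the same MRTFA libraries as the one with control, and its differences are not a separate test of them. Idi1, at 283, 292 and 206 with MRTFA and 550, 465 and 305 with MRTFB, kept its call only without MRTFB replicate 3, and so did Stard4, at 1526, 1713 and 1456 and 2296, 2369 and 1687 (adjusted p up to 0.124 and 0.144 otherwise). Lss lost its call without MRTFA replicate 3 or MRTFB replicate 1 or 2 (adjusted p = 0.0650, 0.0742 and 0.0752). Without the E0771 libraries numbered 3, 15 members were higher and 1 lower, where 1682 and 2002 of 12463 tested genes were called.

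Whether a gene answered MRTFA differently in the 2 lines was tested as the difference of the differences, E0771 minus B16F10. It was called for 7 members, 5 higher and 2 lower, beside 12.6% and 8.55% of the 14859 genes tested. Over all genes that was 1867 higher and 1271 lower, and 1669 and 1785 with upper-quartile scaling, where 2 members were higher. Acss2 had the largest value, 2.01 ± 0.20 (SE; limma adjusted p = 2.37e-06), with the B16F10 control libraries at 522, 422 and 444 and those labelled MRTFA at 427, 378 and 371. Elovl6 (-0.83 ± 0.24, adjusted p = 0.0231) and Acaca (-0.35 ± 0.12, adjusted p = 0.0494) were the 2 lower ones, and in B16F10 Elovl6 had 3855, 3754 and 2994 in controls and 3315, 3531 and 2655 in the libraries labelled MRTFA. The other higher ones were sterol genes: Tm7sf2 (1.14 ± 0.33, adjusted p = 0.0198), Mvd (1.01 ± 0.34, adjusted p = 0.0465), Mvk (0.98 ± 0.33, adjusted p = 0.0475) and Hsd17b7 (0.66 ± 0.21, adjusted p = 0.0336). All 4 were under 0 in B16F10 and above 0 in E0771. Per library, Tm7sf2 had 50.3, 70.1 and 43.9 in E0771 controls and 97.6, 63.2 and 75.2 with MRTFA, Mvd had 459, 599 and 342 and 674, 606 and 363, and both overlapped there. The B16F10 values of Mvk were 887, 793 and 810 and 810, 474 and 684, and those of Hsd17b7 1010, 1101 and 1329 and 772, 844 and 1147, with overlap in each. Scd2 missed the threshold by little (-0.96 ± 0.33, adjusted p = 0.0511). Over the arms, the median line difference was 0.31 for sterol genes and 0.02 for fatty acid genes; the second turned to -0.06 with upper-quartile scaling.

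Several of these calls lay near the threshold and were lost in fits that left out 1 library, with differences of similar size. Acss2 kept its call in all 12 fits that left out 1 library. Tm7sf2 kept it in 9 of 12 (lost without B16F10 control replicate 1, B16F10 replicate 2 labelled MRTFA or E0771 MRTFA replicate 1, adjusted p up to 0.0603), and Elovl6 in 8 of 12 (lost without B16F10 control replicate 3, B16F10 replicate 2 labelled MRTFA, E0771 control replicate 1 or E0771 MRTFA replicate 3, adjusted p up to 0.0656). Mvd and Hsd17b7 kept it in 4 of 12, Mvk in 3 and Acaca in 2, with adjusted p up to 0.134, 0.0869, 0.137 and 0.134. Over the 12 fits the difference ran between 0.80 and 1.28 for Mvd, 0.55 and 0.83 for Hsd17b7, 0.76 and 1.23 for Mvk and -0.40 and -0.26 for Acaca. Mvk and Mvd also lost their calls with no minimum level, upper-quartile scaling, TMM scaling, edgeR or only the groups compared. Hsd17b7 lost its call with upper-quartile scaling, and Acaca with no minimum level. Both lost it with only the groups compared. Hsd17b7, Acaca and Tm7sf2 lost it without the E0771 libraries numbered 3.

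**Figure D5:**
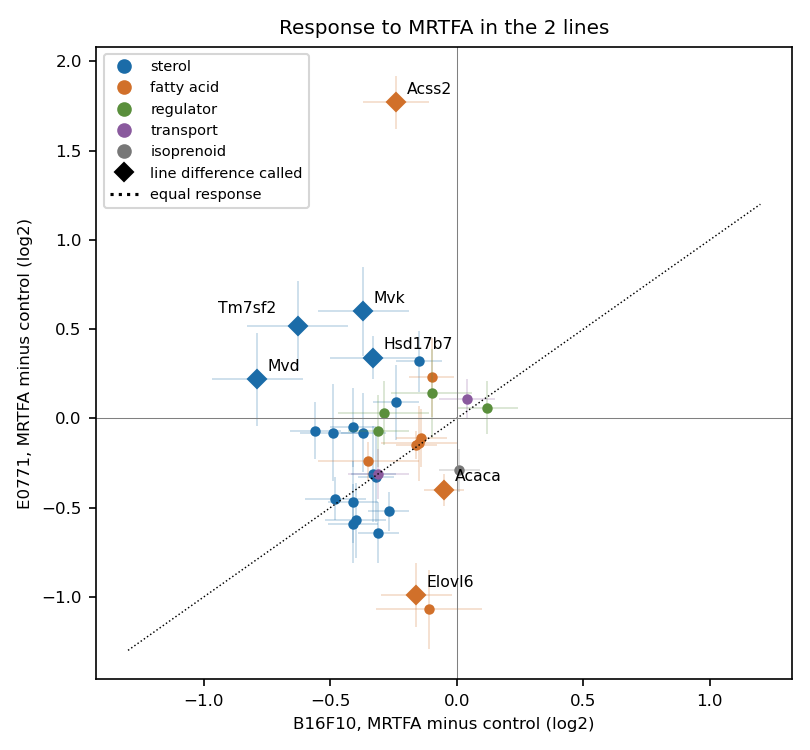
Log2 difference with MRTFA against control in B16F10 (x) and E0771 (y) for the 34 genes, coloured by role, with bars of 1 SE; diamonds with names are genes whose line difference was called and the dotted line marks an equal response. Acss2 lies far above the line, Tm7sf2, Mvd, Mvk and Hsd17b7 lie above it on the left, and Elovl6 and Acaca lie below it.

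For MRTFB the line difference was above 0 for all 18 sterol genes, with a median of 0.57, and for 8 of 9 fatty acid genes, with a median of 0.16. Over all 14859 genes tested 7208 were above 0 and the median was -0.01. No member passed the test (limma 0 higher and 0 lower, beside 0.101% and 0.0135% of all tested genes, edgeR and DESeq2 0). The unadjusted limma p was under 0.05 for 12 members, beside 811 of all tested genes. With the block 7 sterol genes were higher (0.417% of all tested genes) and 0 lower (0.128%): Hmgcs1 (0.70, adjusted p = 0.0259), Pmvk (0.62, 0.0161), Fdps, the farnesyl diphosphate synthase gene (0.69, 0.0323), Sqle (0.46, 0.0353), Lss (0.56, 0.0323), Msmo1 (0.71, 0.0398) and Hsd17b7 (0.76, 0.0164). In each of the 7 the B16F10 difference was under 0 and the E0771 difference above 0.

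Other genes of the pathways, outside the 34, were read from 2 lists. Of the other sterol genes (uptake, storage, efflux and further enzymes), 26 were listed and 25 were in the table. In E0771 with MRTFA 2 of them rose and 7 fell of 23 tested, with a median of -0.17. The shares over all tested genes were 20.3% and 18.1%. Pgrmc1, a haem-binding partner of sterol enzymes, rose by 1.41 ± 0.14 (SE; limma adjusted p = 1.88e-05), Soat1, which stores cholesterol as esters, rose by 0.71 ± 0.11 (adjusted p = 0.000551), and Abcg1, a cholesterol exporter, fell to a ratio of 0.368 (-1.45 ± 0.14, adjusted p = 2.33e-05). Acat1, the mitochondrial thiolase gene, fell as well (-0.74 ± 0.10, adjusted p = 0.000246). Of the other fatty acid genes (36 listed, 35 in the table), 11 rose and 4 fell of 28 tested beside the same shares, with a median of 0.24. Hacd1, a dehydratase of very long chain elongation, rose by 1.42 ± 0.12 (adjusted p = 5.73e-06), and Acsl5, which activates fatty acids, fell (-0.80 ± 0.11, adjusted p = 0.000225). In the B16F10 libraries labelled MRTFA, Hacd1 rose (0.88 ± 0.11, adjusted p = 0.00247) and was the 1 called gene of 23 sterol and 30 fatty acid genes tested. With the block 0 of these sterol genes were called higher and 2 lower, and 2 of the fatty acid genes higher and 2 lower, beside 3.98% and 2.35% of all tested genes. The medians there were -0.14 and 0.02. With MRTFB limma called 0 genes of either list in either line. In B16F10 6 sterol and 3 fatty acid genes had an unadjusted limma p under 0.05, beside 1199 of 13517 genes tested. In E0771 it was 0 and 1, beside 335 of 13189. With the block 3 sterol genes and 1 fatty acid gene were lower and 0 higher in B16F10, beside 2.83% and 1.63% of all tested genes, and 0 were called in E0771.

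Some members share exons or close copies with other genes, and their counts are less certain. Exons of Fdft1, the squalene synthase gene, overlap Ctsb on the opposite strand over 774 bases, those of Tm7sf2 overlap Vps51 on the same strand over 532 bases, and those of Fdps overlap the model Gm43738 on the same strand over 1124 bases (GENCODE M21, GRCm38). Scd1 and Scd2 both lie on chromosome 19, where Scd2 ends at base 44306864 and Scd1 starts at base 44394455. Scd3 and Scd4 are further copies, and Acat2 has a close copy in Acat3. In that annotation Hmgcs1 spans bases 119690379 to 119708260 of chromosome 13 (plus strand), Msmo1 64718139 to 64733792 of chromosome 8 (minus), Acss2 155517948 to 155585724 of chromosome 2 (plus), Elovl6 129532355 to 129638495 of chromosome 3 (plus) and Scd2 44293674 to 44306864 of chromosome 19 (plus).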

How the data were processed

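RNA was sequenced in 18 libraries (6 groups, 3 each). Per the submitters' processing notes, cutadapt 1.6, STAR 2.5.0a, HTSeq 0.5.3 and DESeq were used with build mm10; no source used here names the gene annotation or the strand setting of the counting. The deposited values are a signal, read counts that the authors divided by a size factor for each library. In every library 100% of values came out as whole reads (within 0.001) after that factor was undone, and each library was one column, with 0 columns of no sample.

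limma 3.58.1 (R 4.3.3) was fitted to log2(value + 1), so fold changes of low genes are understated, for genes with at least 10 in at least 3 fitted libraries. The 9 libraries of a line were fitted together, and all 18 for differences between lines. P-values were adjusted by Benjamini-Hochberg over all tested genes and called under 0.05. On the recovered reads edgeR 4.0.16 and DESeq2 1.42.0 were alternatives; edgeR called 4908 genes in E0771 with MRTFA and 213 in B16F10 with that label. The limma fit was tested on simulated counts drawn independently for each library, with the same dispersion for every gene. That test did not cover same-numbered libraries that vary together. Groups were called apart when every library of one was above or below every library of the other.

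Replicate numbers come from the labels. Deviations of same-numbered libraries from their group means correlated by 0.353 to 0.567 (B16F10 MRTFA and control), 0.382 to 0.486 (B16F10 MRTFB and control), 0.403 to 0.634 (B16F10 MRTFB and MRTFA), 0.459 to 0.553 (E0771 MRTFB and control), 0.134 to 0.474 (E0771 MRTFB and MRTFA) and 0.298 to 0.456 (MRTFB between lines), all above 0.1, and these were read as pairs. Gene spans and exon lengths come from GENCODE M21 and promoters from RefSeq, both GRCm38.

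The members and all gene lists were chosen with earlier results of these data known. Any member could be named; values in every library are given for members called against control or between lines and for Hmgcs1, Sqle, Insig1, Srebf1, Srebf2, Fasn, Scd1 and Scd2, and values of other members named were added after they were seen. Other pathway genes were named up to 3 in each direction per comparison with control, by adjusted p. No immune marker of 5 was in the table; 2 of 3 endothelial markers summed to at most 26.5 scaled reads, 4 of 4 fibroblast markers to 535 to 6704, and 1 of 4 adipocyte markers to at most 7.72.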

Additional observations from a re-analysis of the deposited data

Results flagged for a closer look

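The response to MRTFA differed between the lines for 7 of the 34 genes, by a test of the difference itself (limma over 18 libraries, adjusted p under 0.05). With 5 higher and 2 lower of 34, the shares were near the 12.6% and 8.55% of all tested genes. E0771 minus B16F10, the log2 difference was 2.01 for Acss2, 1.14 for Tm7sf2, 1.01 for Mvd, 0.98 for Mvk, 0.66 for Hsd17b7, -0.35 for Acaca and -0.83 for Elovl6. Mkl1 was not called higher in the B16F10 libraries labelled MRTFA, and its part in these differences was not tested.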

How the results depend on the processing

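The alternatives were followed for 80 values of single members (those called and those named in the rule). These kept their direction and their side of the threshold 1158 times, lost the call 105 times, gained one 11 times and changed sign 31 times; counts and arm medians stayed close in 420 and moved in 57. The cause of each move below was not tested. Members called lower in B16F10 with the label MRTFA went from 1 to 10 with DESeq2, to 17 with the replicate block and to 0 to 2 when 1 library was left out; with the label MRTFB they went from 0 to 7 with DESeq2, 14 with the block and 1 when only the groups compared were fitted. In E0771 with MRTFA the members higher went from 2 to 1 with upper-quartile scaling, with TMM scaling or with only the groups compared, to 5 with the replicate block and to 1 to 2 without single libraries. The members lower went from 6 to 11 with upper-quartile scaling and 13 with the block, which called 3237 higher and 3168 lower of 13189 genes in that comparison. Same-numbered libraries did not all vary together in that comparison (lowest correlation 0.084), in the MRTFA difference between lines (0.058) or between controls (0.084). For these the block is given as an alternative only. Between MRTFB and MRTFA in E0771 members higher went from 9 to 16 and lower from 1 to 2 with the block, and to 15 higher without the libraries numbered 3, an alternative chosen after seeing the data. For the MRTFA difference between lines, members higher went from 5 to 3 with no minimum, with TMM scaling, with edgeR or without the E0771 libraries numbered 3, to 2 with upper-quartile scaling or only the groups compared, to 11 with the block and to 1 to 4 without single libraries. Members lower went from 2 to 1 with no minimum, with only the groups compared or without the libraries numbered 3, to 4 with the block and to 0 to 2 without single libraries. Over all genes, the split of 1867 higher and 1271 lower moved to 1669 and 1785 with upper-quartile scaling and to 2726 and 2439 with the block. For MRTFB between lines the block gave 7 higher. The block moved the count of members called by over 1.5 times in no other comparison. The sterol minus fatty acid median, leaving out single libraries, ran from -0.04 to 0.28 (E0771 MRTFA), -0.13 to 0.27 (E0771 MRTFB against MRTFA, 0.23 without the libraries numbered 3), 0.14 to 0.47 (MRTFA between lines) and 0.23 to 0.60 (MRTFB between lines).

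Over all 34 members, the difference from control took both signs when single libraries were left out for 5 (B16F10 MRTFA), 4 (B16F10 MRTFB), 11 (E0771 MRTFA) and 17 (E0771 MRTFB), 0 of them called. Among them were Msmo1 (-0.19 to 0.07), Fdps (-0.29 to 0.06), Nsdhl (-0.30 to 0.13) and Dhcr7 (-0.06 to 0.26) in E0771 with MRTFA and Fads1 (-0.10 to 0.09) in B16F10 with the label MRTFB. The sign changes among the 80 values were as follows. In B16F10 with the label MRTFA, leaving out single libraries gave -0.29 to 0.04 for Fasn (above 0 without labelled replicate 2), -0.26 to 0.07 for Scd2 and -0.31 to 0.04 for Srebf1 (above 0 without labelled replicate 3). With the label MRTFB it gave -0.15 to 0.00 for Fasn and -0.10 to 0.24 for Scd2, which was below 0 without control replicate 3 (-0.08) or labelled replicate 1. In E0771 with MRTFA it gave -0.23 to 0.09 for Hmgcs1, -0.34 to 0.07 for Fasn, -0.07 to 0.42 for Srebf1, -0.18 to 0.13 for Srebf2 and -0.09 to 0.18 for Insig1. In E0771 with MRTFB it gave -0.12 to 0.29 for Fasn, -0.04 to 0.17 for Scd1, -0.15 to 0.18 for Scd2, -0.12 to 0.37 for Srebf1 and -0.06 to 0.26 for Insig1. Without the E0771 libraries numbered 3, Fasn was 0.01, Srebf2 0.02 and Insig1 -0.01 with MRTFA, and Srebf1 -0.07 with MRTFB; upper-quartile scaling gave -0.03 for Insig1 with MRTFA.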
